A study of Mus musculus with 40 samples.

Results

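Uncoupling protein 1 (UCP1) is the best known source of heat in brown and beige fat cells, and other heat-producing paths run beside it. The genes followed here are 9 that encode such paths: the uncoupling proteins Ucp1, Ucp2 and Ucp3, the thyroid hormone activating enzyme Dio2, the creatine cycle genes Ckb, Gatm, Slc6a8 and Alpl, and the calcium pump gene Atp2a2. They are 9 of the 21938 protein-coding genes of the mouse annotation, and were listed by their function. For each gene, H3K27ac peaks were collected from 15 kb upstream of its start to its end on the mouse genome build mm10. These windows held 64 of the 169358 regions obtained by merging the peaks of all libraries.

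H3K27ac, an acetylation of histone H3, marks active promoters and enhancers. It was measured by ChIP-seq in preadipocytes isolated from the inguinal white adipose tissue (iWAT) of wild-type (WT) mice and of Hmgn1-/- and Hmgn2-/- double knockout (DKO) mice, all of strain C57BL/6. The DKO mice lack the nucleosome-binding proteins HMGN1 and HMGN2. Cells of both genotypes were grown on collagen-coated plates, then given insulin, dexamethasone, the phosphodiesterase inhibitor IBMX, triiodothyronine and rosiglitazone, an agonist of the fat cell regulator PPARγ, and afterwards insulin and triiodothyronine. Libraries were made from the untreated preadipocytes of day 0 and at days 3, 6 and 9 of this conversion into brown-like adipocytes, with 3 libraries in each of the 8 groups. The knockout is carried by every cell of the mouse, and the cells came from adult animals according to the study's methods. The labels do not say whether the 3 libraries of a group came from separate animals or cultures, so the p-values measure the spread between these libraries.

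UCP1 sits in the inner mitochondrial membrane and lets protons return to the matrix without the synthesis of ATP, so that the energy of respiration leaves as heat. UCP2 and UCP3 are close relatives of UCP1 whose transport roles are still debated, with UCP3 best known from muscle and brown fat and UCP2 expressed widely, macrophages included. Type 2 deiodinase, the product of Dio2, converts thyroxine to the active triiodothyronine inside the cell. In the futile creatine cycle, phosphocreatine is made by creatine kinase B (Ckb) and hydrolysed by the phosphatase TNAP (Alpl), while creatine itself is made through the amidinotransferase GATM or taken up by the transporter SLC6A8. SERCA2, the product of Atp2a2, pumps calcium into the endoplasmic reticulum at the cost of ATP, and leak and re-uptake of that calcium form another cycle that releases heat.

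Each deposited list gives the peaks of 1 library. From it were taken the length of a gene's window that lies under peaks (covered length, in kb), the highest fold of a peak summit over its local background, and the rank of the strongest peak by q-value, as a percentage of the list (a low percentage is a strong peak). The lists held from 47448 to 115923 peaks. A pair of libraries stood apart, and values without them are given where they decide a result. The list of DKO day 0 replicate 2 had wide peaks (60672 peaks over 96.4 Mb, none under 440 bp). The narrowest peak of the other lists was 155 to 165 bp. WT day 3 replicate 3 was taken as shallow (a median of 12 reads at the summits, against 17 to 20 in the remaining lists). These reads were recovered from the fold and p-value of each peak. In that list the lowest background so obtained was −0.836 reads, which no count can be, so its depth is inferred. DKO lists were shorter at day 6 (20.7 to 36.3 Mb covered, against 55.5 to 60.4 Mb in WT) and longer at day 9 (61.2 to 68.8 Mb against 48.2 to 59.6 Mb), so counts over all genes are given beside those of the 9 genes. The window of Hmgn2 had a covered length of 1.04, 1.5, 1.63 and 1.35 kb in WT at the 4 days and of 0, 0, 0.0657 and 0.478 kb in DKO (adjusted p = 0.0199, exact permutation test), whereas the Hmgn1 window carried peaks in both genotypes (p = 0.39, exact permutation test). Which part of each gene was deleted is not given in the labels. Of the adipocyte markers, Adipoq and Cidec had no peak within 1 kb of their starts in any library of days 0 and 3. Both had one in every library of days 6 and 9. Plin1 had one in no library of day 0, in 3 WT and 2 DKO libraries of day 3 and in all of days 6 and 9. Fabp4 and Lpl had one in all 24 libraries, so these 2 did not separate the days. The summed covered length there of the 5 adipocyte markers went from 1.76 to 4.77 kb at day 0 to 12.8 to 16.3 kb at days 6 and 9. Split by genotype, the DKO sums were all above WT at day 0 (DKO 2.38 to 4.77, WT 1.76 to 2.3). The same held at day 9 (DKO 15.7 to 16.3, WT 14.3 to 14.9). Day 3 showed overlap (DKO 1.86 to 4.5, WT 1.9 to 5). Day 6 had the reverse order, with DKO from 12.8 up to 15.2 and WT from 15.2 up to 15.9. The part of these marker differences in the values of the 9 genes was not tested. The preadipocyte markers Pdgfra, Pdgfrb and Ly6a had a peak within 1 kb of their starts in all 24 libraries and Dlk1 in none. Cd34 had none at day 0, had one in 1 WT and 3 DKO libraries at day 3 and in 2 WT but no DKO libraries at day 6, and had one in all 6 libraries of day 9. The summed length of the 5 preadipocyte markers was 10.1 to 10.5 kb in WT against 7.38 to 8.48 kb in DKO at day 6, and the groups overlapped at the other days. Of the endothelial markers, Emcn had no peak in any library. The summed length of the 5 was 2.09 to 2.76 kb in WT against 2.83 to 5.64 kb in DKO at day 0. It was 0.952 to 1.68 kb and 0.984 to 1.16 kb at day 3. DKO lay below WT at day 6 (0.983 to 1.12 kb in WT, 0 to 0.403 kb in DKO). At day 9 the sums were 0.741 to 1.24 kb and 0.963 to 1.6 kb.

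Across the 4 days, none of the 9 genes passed the test between the genotypes. Of 15933 genes with a peak in at least 3 libraries, 0.119% were called lower and 0.0314% higher in DKO in covered length (exact permutation test over 160000 relabellings, Benjamini-Hochberg adjusted p under 0.05), and 0 of the 9 genes were among them. At an unadjusted p under 0.05, 4 of the 9 stood out, Ucp3 as higher and Dio2, Slc6a8 and Alpl as lower, as did 963 lower and 635 higher genes of all tested. In the highest fold, 5.77% of the 11941 genes with a peak in all 24 libraries were called lower and 0.268% higher in DKO. None of the 5 members among those 11941 was called, and 2 of them had an unadjusted p under 0.05, Ucp2 (log2 difference 0.268, p = 0.0284, adjusted p = 0.149, exact permutation test) and Atp2a2 (log2 difference −0.193, p = 0.0328, adjusted p = 0.159, exact permutation test).

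Single days differed in both directions. The groups are 3 libraries against 3, for which the smallest exact permutation p is 0.1, so the days are described by whether the DKO and WT values overlap. At day 0, Ucp2 and Ucp3 lay above WT without overlap, as did 19.5% of all genes, and none of the 9 lay below (0.722% of all genes). At day 3, Dio2 and Alpl lay below (10.5% of all genes) and none above (0.69%). Slc6a8 and Atp2a2 lay below at day 6, when 62.6% of all genes did and 0.0753% lay above. At day 9 the order turned: Ucp1, Ucp2, Ucp3, Dio2 and Ckb lay above WT, against 30.7% of all genes, and Slc6a8 lay below, against 1.98%. Ucp1 and Gatm had no peak in any WT library of day 6 and so could not lie below. Ucp1 had peaks in 0 WT and 4 DKO libraries, with all 3 DKO libraries of day 9 among them. It thus passed the filter of at least 3 libraries through DKO alone, and its place above WT at day 9 followed from that filter. The share of the 9 genes was not tested against that of all genes.

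The directions over all genes depended on the scale. When each library was scaled to its total covered length (kb per covered Mb), 15% of all genes lay below WT without overlap at day 6 and 37.7% above. Of the 9 genes, Slc6a8 then lay below and Ucp3 above at that day, and Atp2a2 overlapped (0.108 to 0.146 kb per covered Mb in WT, 0.0929 to 0.124 in DKO). At day 9, Slc6a8 remained below (13.8% of all genes) and Ucp1, Ucp2 and Ucp3 above (14%), while Dio2 and Ckb overlapped. The place of Ucp1 again followed from the filter. At day 3, Dio2 and Alpl were again below (7.93%), and Ucp2 and Ckb came to lie above (12.7%). At day 0, Ucp3 remained above (11.8%), Ucp2 overlapped, and Atp2a2 came to lie below (11.1%). The separations numbered 12 on either scale, 8 of them for the same gene, day and direction.

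**Figure D1:**
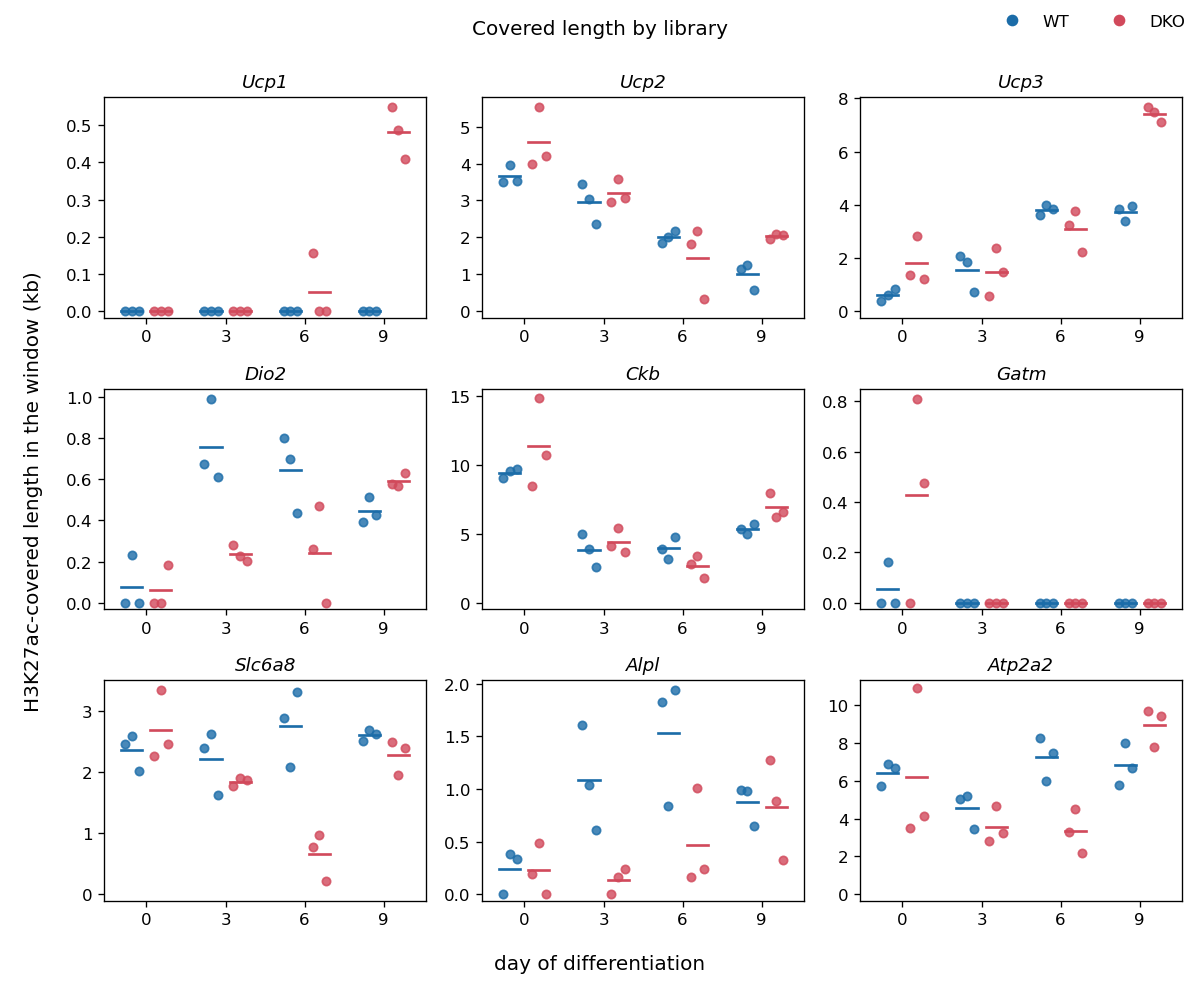
Covered length (kb of the gene's window under H3K27ac peaks, y axis) by day of differentiation (x axis) for the 9 genes, with 1 point per library (WT blue, DKO red) and a bar at the mean of 3 libraries. Each panel has its own y axis from 0. The 3 DKO libraries of day 9 lie above all WT libraries of that day for Ucp1, Ucp2, Ucp3, Dio2 and Ckb, and those of day 6 lie below WT for Slc6a8 and Atp2a2.

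From day 0 to day 9, over both genotypes, 15.7% of all genes were called lower and 17% higher in covered length (exact permutation test over 400 relabellings, adjusted p under 0.05). Of the 9 genes, Ucp3, Dio2 and Alpl were called higher and Ucp2 and Ckb lower. Ucp3 gained 4.37 kb, Dio2 0.448 kb (both adjusted p = 0.0194) and Alpl 0.621 kb (adjusted p = 0.0335) in this exact permutation test. Ucp2 fell by 2.6 kb and Ckb fell by 4.26 kb (both adjusted p = 0.0194, exact permutation test). Ucp1, Gatm, Slc6a8 and Atp2a2 were not called (adjusted p = 0.201, 0.342, 0.903 and 0.454, exact permutation test).

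Ucp1 (chr8:83290352-83298452) carried no peak in its body, at its start or within 5 kb upstream in any of the 24 libraries. The wider window did hold peaks, in DKO libraries alone. They lay 11.5 to 12.2 kb upstream of the start in all 3 DKO libraries of day 9, and 6.03 kb upstream in DKO day 6 replicate 1. Covered length was thus 0.548, 0.487 and 0.41 kb in DKO day 9 replicates 1, 2 and 3 and 0.157 kb in DKO day 6 replicate 1, and 0 kb in the other 20 libraries, all 12 of WT included. The mean at day 9 was 0.482 kb ± 0.0692 (SD, n = 3) in DKO and 0 in WT.

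The day 9 peaks formed a region at chr8:83278013-83278608 that was called in all 3 DKO but none of the 3 WT libraries. Among all merged regions at day 9, 2.2% were split in this way and 0.582% in the opposite way. The peaks were weak. Their folds were 4.48, 3.77 and 4.42 in replicates 1, 2 and 3, from 13, 11 and 11 reads at the summit over a background of 2.12, 2.18 and 1.72 reads, and they ranked at 77.3%, 92.4% and 82.6% of their lists. With only peaks of −log10 q of at least 5, the split was lost, since the values of replicates 2 and 3 were 3.7 and 4.67. No gene is annotated at this place, and Ucp1 is the nearest protein-coding gene. Over all genes, 13 had peaks in 3 of 3 DKO day 9 libraries and in none of the 12 WT libraries. The pattern counted is that of Ucp1 itself and the reverse is not given, so this count is a description with no test. Outside the window, the nearest peak lay 89 to 201 kb upstream of the start (median 89.35 kb) and 16.8 to 33.6 kb past the end (median 33 kb).

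The 202 bases that the day 9 peaks of all 3 DKO libraries had in common (chr8:83278359-83278560, plus strand, mm10) are printed because this is the only stretch near Ucp1 that the mark reached in a whole group. The capitals mark 2 peak summits with 5 bases on either side. Below them stands the promoter of Ucp1, the 250 bases before its start in RefSeq (chr8:83290098-83290347, plus strand, build GRCm38.p6), of which no base was covered in any library. Its capitals mark an AGGTCA, the core site of many nuclear receptors.
Ucp1 upstream stretch: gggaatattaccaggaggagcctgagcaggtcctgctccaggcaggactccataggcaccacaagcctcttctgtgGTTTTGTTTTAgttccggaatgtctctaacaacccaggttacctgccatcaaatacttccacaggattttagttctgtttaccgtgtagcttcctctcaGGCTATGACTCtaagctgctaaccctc
Ucp1 promoter: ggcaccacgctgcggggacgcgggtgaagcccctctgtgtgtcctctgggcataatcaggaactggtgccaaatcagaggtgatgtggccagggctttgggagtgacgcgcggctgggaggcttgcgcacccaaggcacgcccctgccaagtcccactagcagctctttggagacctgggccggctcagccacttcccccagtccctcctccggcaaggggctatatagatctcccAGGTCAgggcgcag
On either strand, the upstream stretch held no AGGTCA. It held no pair of such copies, with at most 2 mismatches, spaced by 1 base (the arrangement bound by PPARγ with RXR) or by 4 bases (that of thyroid hormone receptors). Also searched and not found were TTGCNNAA, the motif of C/EBP factors, and CCCNNGGG, that of EBF factors. The same was true of the cAMP response element TGACGTCA, the AP-1 motif TGACTCA and the TATA box letters TATAAA. The promoter held AGGTCA once, a motif found in 14% of 32851 RefSeq promoters, and none of the others.

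**Figure D2:**
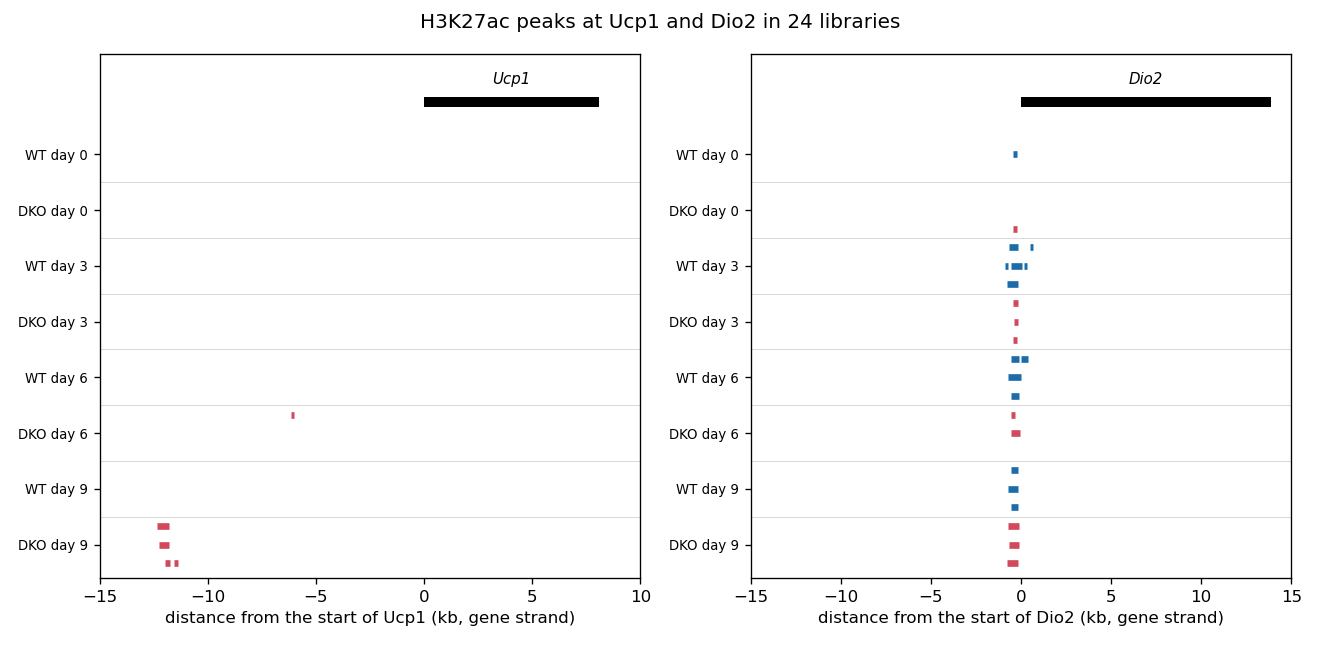
Peaks in each library (rows of 3 per group, WT blue, DKO red) by distance from the start of Ucp1 (left) and Dio2 (right) in kb along the gene's strand. Black bars are the gene bodies. At Ucp1 the only peaks are those of DKO libraries, 11.5 to 12.2 kb upstream at day 9 and 6.03 kb upstream at day 6, and at Dio2 the peaks sit at the start or, in 1 library, 0.539 kb from it.

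Ucp3 (chr7:100472990-100486432) had the largest rise of the 9 genes from day 0 to day 9, and its DKO libraries of day 9 stood furthest above WT. Covered length in WT replicates 1, 2 and 3 was 0.391, 0.621 and 0.853 kb at day 0, 2.08, 1.84 and 0.723 kb on day 3, 3.63, 3.98 and 3.84 kb on day 6, then 3.85, 3.38 and 3.97 kb at day 9. In DKO it was 1.35, 2.83 and 1.2 kb at day 0, 0.568, 2.39 and 1.46 kb on day 3, 3.25, 3.78 and 2.23 kb on day 6, then 7.68, 7.48 and 7.09 kb at day 9. The WT values of days 6 and 9 overlapped, while the DKO values of day 9 lay above those of day 6 without overlap. The DKO lists themselves covered 20.7 to 36.3 Mb at day 6 and 61.2 to 68.8 Mb at day 9. Per covered Mb the DKO values of Ucp3 were 0.0917 to 0.108 kb at day 6 and 0.112 to 0.118 kb at day 9. The share of all genes with such a rise was not counted. At day 9 the means were 3.73 kb ± 0.307 in WT and 7.42 kb ± 0.304 in DKO (SD, n = 3 each; exact permutation p = 0.1, the smallest possible). Over the 4 days the difference was 1.01 kb (p = 0.0397, adjusted p = 0.47, exact permutation test). When each library was scaled to its total covered length, Ucp3 was called higher in DKO (0.0256 kb per covered Mb, adjusted p = 0.00746, exact permutation test), as were 10.7% of all genes, with 6.36% called lower. On that scale its DKO values were all above those of WT at days 0, 6 and 9, so that its order at day 6 depended on the scale (0.0636 to 0.0717 kb per covered Mb in WT and 0.0917 to 0.108 in DKO).

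Of the 9 regions in the Ucp3 window, 3 carried most calls. The region at chr7:100460649-100462962, 11.5 kb upstream, lies in an intron of the neighbouring gene C2cd3 and was called in all 24 libraries. That at chr7:100464972-100466591, 7.38 kb upstream and only 0.205 kb from a transcript start of C2cd3, was called in 18 libraries and in all 12 of days 6 and 9, so that the mark there cannot be assigned to either gene. The third, at chr7:100471066-100475664, spans the Ucp3 start and the intron after it. It was called in no WT library and 2 DKO libraries at day 0, in 2 WT libraries and no DKO library at day 3, and in all 12 libraries of days 6 and 9, with folds of 3.48 to 11.2.

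The start of Ucp3 itself was marked chiefly in DKO cells of day 9. Within 1 kb of its transcript starts no library of days 0 and 3 had a covered base. At day 9 the covered length there was 0.216, 0 and 0.45 kb in WT replicates 1, 2 and 3 (0.222 kb ± 0.225, SD) and 1.78, 1.52 and 1.46 kb in DKO (1.59 kb ± 0.169, SD, n = 3 each; exact permutation p = 0.1, the smallest possible). Of the 250 bases before the start in RefSeq, all were covered in each of the 3 DKO libraries of day 9 and none in the other 21 libraries. Of the 15049 RefSeq promoters with a covered base in some library, 14 (0.093%) were covered in those 3 libraries alone, and Ucp3 was the 1 promoter (0.00664%) covered over all 250 bases in them and over none elsewhere. This way of counting was chosen after the Ucp3 values had been seen, and is a description with no test.

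The Ucp3 promoter (chr7:100472741-100472990, plus strand, RefSeq, build GRCm38.p6) is printed because it is the sequence that the mark reached in that group. The capitals mark a pair of AGGTCA copies 4 bases apart and a pair 1 base apart, each with at most 2 mismatches. The second sequence is the strongest summit in the intron (chr7:100474914-100475213, plus strand, mm10), which WT and DKO shared from day 6 on, with the summit and 5 bases either side in capitals.
Ucp3 promoter: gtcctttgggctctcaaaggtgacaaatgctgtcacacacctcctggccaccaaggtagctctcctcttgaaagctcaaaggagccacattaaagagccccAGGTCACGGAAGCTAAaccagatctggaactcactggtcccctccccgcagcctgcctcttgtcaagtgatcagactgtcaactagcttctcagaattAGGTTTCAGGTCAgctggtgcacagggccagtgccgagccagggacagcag
Ucp3 intron summit: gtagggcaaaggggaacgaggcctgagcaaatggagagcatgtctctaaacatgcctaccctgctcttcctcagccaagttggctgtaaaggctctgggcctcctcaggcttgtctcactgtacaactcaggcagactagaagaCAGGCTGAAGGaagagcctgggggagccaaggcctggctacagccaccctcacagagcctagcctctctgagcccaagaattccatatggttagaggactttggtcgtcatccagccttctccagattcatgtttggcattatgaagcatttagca
Pairs with 1 base between were found in 3.24% of all RefSeq promoters and pairs with 4 bases between in 2.57%. The intron stretch held none of the motifs searched. A match describes the letters alone.

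**Figure D3:**
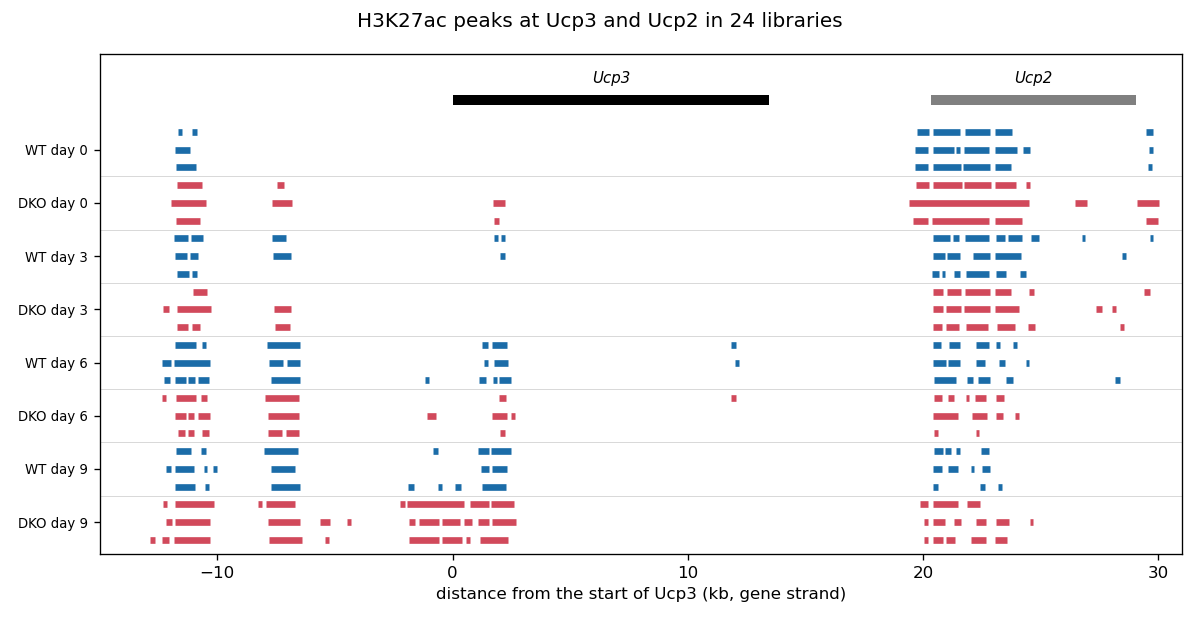
Peaks in each library (rows of 3 per group, WT blue, DKO red) by distance from the start of Ucp3 in kb, with the gene bodies of Ucp3 (black) and Ucp2 (grey). The long peaks over the Ucp3 start are those of DKO day 9, and the peaks at the Ucp2 start thin out from day 0 to day 9.

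Skeletal muscle, where UCP3 is abundant, was examined through its own markers. Myod1, Myog, Ckm and Myh1 had no peak within 1 kb of their starts in any of the 24 libraries. Acta1 had one in 7 libraries, and the summed covered length of the 5 markers was 0.512 to 0.64 kb in DKO at day 9 against 0 to 0.302 kb in WT, all of it at Acta1. The genes whose covered length followed that of Ucp3 most closely over the 24 libraries, among 14553 genes, were Syne2 (Pearson r = 0.97), Abhd18 (0.969), 1700037H04Rik (0.969), Tomm40 (0.968) and Acer2 (0.961). These correlations describe libraries that share groups and depth. Each of the 5 had its highest mean in DKO at day 9, which follows from their choice by likeness to Ucp3. Examples are 5.77 kb against 3.25 kb in WT for Syne2 and 6.28 kb against 4.24 kb for Tomm40, which encodes a part of the mitochondrial import pore.

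Ucp2 (chr7:100493337-100502020), the next gene downstream of Ucp3, went the other way with time. WT replicates 1, 2 and 3 had 3.49, 3.96 and 3.53 kb covered at day 0, 3.45, 3.04 and 2.36 kb on day 3, 1.85, 2.01 and 2.17 kb on day 6, then 1.14, 1.26 and 0.585 kb at day 9. DKO had 3.98, 5.54 and 4.21 kb at day 0, 2.96, 3.57 and 3.08 kb on day 3, 1.81, 2.18 and 0.338 kb on day 6, then 1.95, 2.08 and 2.07 kb at day 9. The WT mean was lower at each later day, and at day 9 all DKO values lay above WT (2.03 kb ± 0.0708 against 0.996 kb ± 0.361, SD, n = 3 each; exact permutation p = 0.1, the smallest possible). A like order was seen in the rank of the strongest peak, which moved from between 8.71% and 16% of the list in WT at day 0 to between 48.2% and 55.1% at day 9. In DKO at day 9 it ranked at 19%, 27.3% and 32.6%. The highest fold at day 9 was 6.06, 6.01 and 5.43 in WT and 9.85, 8 and 7.73 in DKO. Nearly all of it was 1 region at the Ucp2 start, chr7:100492408-100497900, called in all 24 libraries.

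When only the 250 bases on either side of summits were counted, the day 0 to day 9 difference of Ucp2 was 0.044 kb in place of the fall, and the mean difference between genotypes turned to −0.281 kb. The RefSeq promoter of Ucp2 had 104, 85 and 86 of its 250 bases covered in DKO day 9 replicates 1, 2 and 3 and 0 in WT at that day. Of 12885 RefSeq promoters covered in some day 9 library, 1.03% had bases covered in all 3 DKO but none of the 3 WT libraries, and among the 7 of the 9 genes with an entry there these were Ucp2 and Ucp3 (Slc6a8 and Atp2a2 were not looked at). Markers of macrophages and blood were summed beside Ucp2, without a measure of likeness. The summed covered length within 1 kb of the starts of Ptprc, Adgre1, Cd68, Csf1r and Itgam was 6.73 to 7.18 kb in WT against 7.96 to 10.4 kb in DKO at day 0. The genotypes overlapped at day 3 (3.56 to 5.32 kb in WT, 5.13 to 5.94 kb in DKO). They also overlapped at day 6 (2.49 to 3.11 kb in WT, 2.06 to 4.45 kb in DKO). At day 9 the sums were 2.12 to 2.68 kb in WT against 2.84 to 3.35 kb in DKO. Cd68 and Csf1r had a peak in all 24 libraries. The part of such cells in the Ucp2 values was not tested, and in bulk samples a change in the share of cells and a change within cells cannot be told apart.

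**Figure D4:**
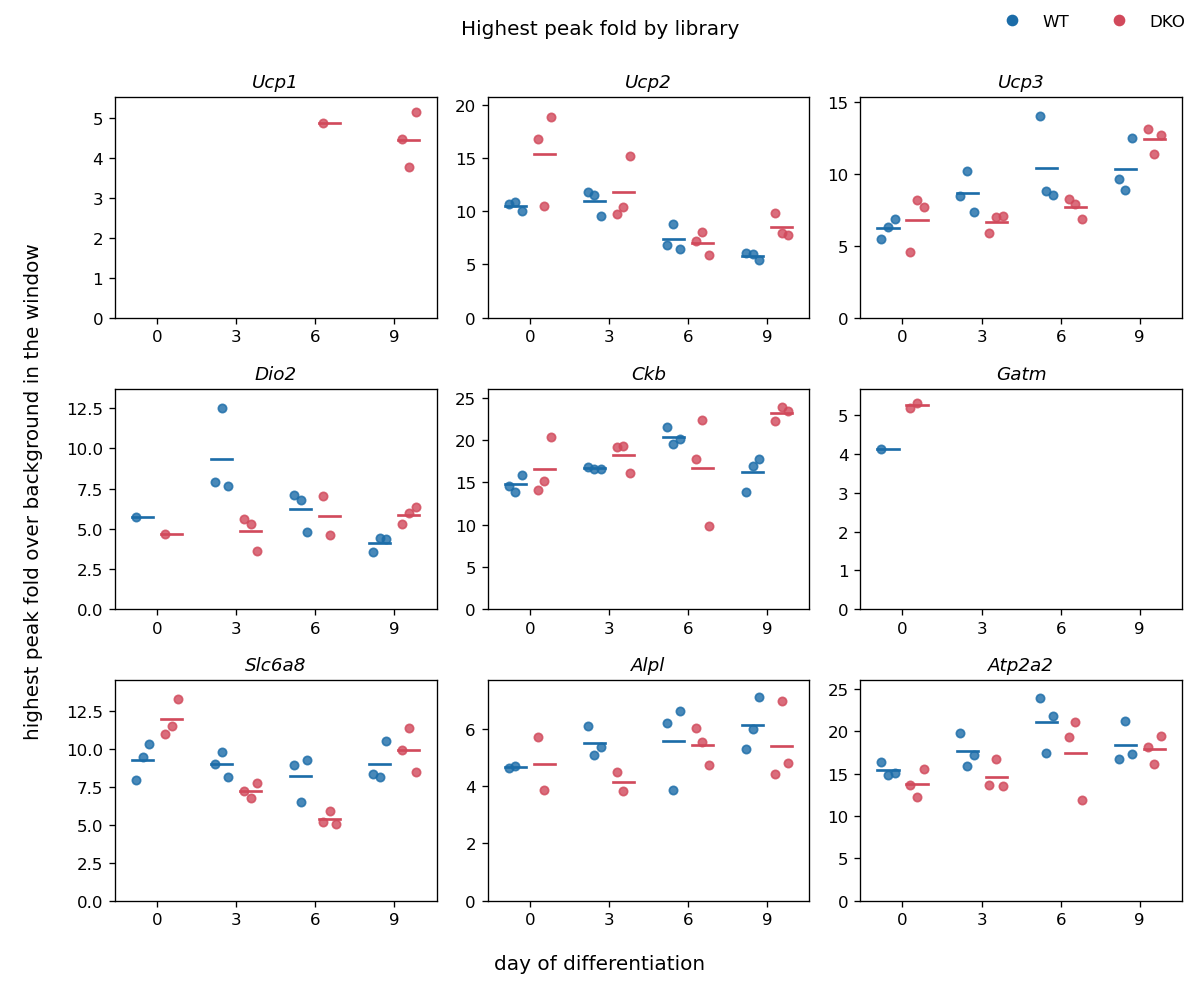
Highest fold of a peak summit over its local background, among peaks that overlap the window (y axis, from 0 in each panel), by day (x axis) and library (WT blue, DKO red), with a bar at the mean of the libraries that held a peak. Libraries with no peak have no point. Ckb folds of DKO day 9 (22.3 to 23.9) lie above WT (13.9 to 17.8), and Slc6a8 folds of DKO day 6 (5.07 to 5.89) lie below WT (6.49 to 9.26). Those Ckb folds of DKO come from a region whose summit lies downstream of the window, where WT had 11.6 to 16.9. The WT folds of 13.9 and 17.8 come from a region closer to the start of Trmt61a. The share of all genes with such a separation in fold was not counted.

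Dio2 (chr12:90724552-90738438, minus strand) had a region at its start that was called in every library of day 3, with higher folds in WT. Its window held only 1 other region, in the intron 0.539 kb from the start (chr12:90737778-90737937), called in WT day 3 replicate 1 alone. At day 0, 1 WT and 1 DKO library had a peak, of 0.232 and 0.184 kb. At day 3 covered length was 0.672, 0.991 and 0.613 kb in WT replicates 1, 2 and 3, with highest folds of 7.93, 12.5 and 7.63. In DKO it was 0.281, 0.226 and 0.204 kb, with folds of 5.62, 5.28 and 3.6. The groups did not overlap in either measure. Means at day 3 were 0.759 kb ± 0.203 and 0.237 kb ± 0.0397 (SD, n = 3 each; exact permutation p = 0.1, the smallest possible), and the difference was −0.595 kb without the shallow WT replicate 3.

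The order of the genotypes at Dio2 was the opposite at day 9. Covered length was 0.798, 0.699 and 0.436 kb in WT and 0.26, 0.471 and 0 kb in DKO at day 6, and 0.391, 0.512 and 0.427 kb in WT against 0.576, 0.565 and 0.631 kb in DKO at day 9. The folds at day 9 were 3.57, 4.41 and 4.37 in WT and 5.32, 5.97 and 6.36 in DKO. DKO was thus below WT at day 3 and above it at day 9, each without overlap. Per covered Mb, however, the day 9 values overlapped (0.00729 to 0.00859 kb for WT against 0.00837 to 0.0103 kb for DKO), while those of day 3 did not (0.0135 to 0.0197 and 0.0054 to 0.00941 kb).

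The region at chr12:90738079-90739343, called in 19 libraries, also lies in an intron of the noncoding gene Gm26512. It reaches the RefSeq promoter of Dio2 (chr12:90739039-90739288, minus strand, build GRCm38.p6), of which 55, 126 and 183 bases were covered in WT replicates 1, 2 and 3 at day 3 and none in DKO. Of the 11616 RefSeq promoters covered in some day 3 library, 1.7% were split between the genotypes in this way. At day 9, 0, 102 and 0 bases were covered in WT and 103, 75 and 186 in DKO. The promoter is printed because these edges of the mark moved across it. Its capitals mark the cAMP response element TGACGTCA, found in 1.55% of RefSeq promoters, a TTGCNNAA on the other strand (9.56%) and a TATAAA (12.4%).
Dio2 promoter: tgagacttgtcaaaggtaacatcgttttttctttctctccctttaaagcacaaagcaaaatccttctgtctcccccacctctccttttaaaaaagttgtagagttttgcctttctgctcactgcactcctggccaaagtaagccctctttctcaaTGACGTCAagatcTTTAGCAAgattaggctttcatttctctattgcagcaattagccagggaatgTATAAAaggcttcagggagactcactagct

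Ckb (chr12:111669361-111672338, minus strand) lies in a densely marked stretch, and its 4 regions were called in all 24 libraries. Covered length in WT replicates 1, 2 and 3 was 9.07, 9.53 and 9.73 kb at day 0, 4.99, 3.92 and 2.61 kb on day 3, 3.9, 3.18 and 4.8 kb on day 6, then 5.35, 5.01 and 5.73 kb at day 9. In DKO it was 8.47, 14.9 and 10.7 kb at day 0, where the 14.9 kb belong to the library with wide peaks, then 4.13, 5.43 and 3.67 kb on day 3, 2.78, 3.37 and 1.8 kb on day 6, then 8, 6.23 and 6.55 kb at day 9. At day 9 the genotypes did not overlap (5.36 kb ± 0.362 in WT and 6.93 kb ± 0.94 in DKO, SD, n = 3 each; exact permutation p = 0.1, the smallest possible), but per covered Mb they did (0.084 to 0.111 kb and 0.0981 to 0.116 kb).

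The strongest peak of the Ckb window stayed among the top of the lists, though it did not lie in the same region in each library. It ranked between 1.55% and 5.6% of the list in 23 libraries and at 18.1% in DKO day 6 replicate 3, the shortest list. At day 9 the highest fold was 13.9, 16.9 and 17.8 in WT and 22.3, 23.9 and 23.4 in DKO. Those DKO folds came from the region at chr12:111667880-111672940, which covers the gene and whose summit lies downstream of it, outside the window's limit at the gene end, where the WT folds were 12.1, 16.9 and 11.6. The regions at chr12:111673802-111679692 and chr12:111680440-111684494 lie upstream of Ckb and closer to the start of Trmt61a, the second of them in an intron of that gene. The first of them held the WT folds of 13.9 and 17.8 at day 9. At day 6 its folds in WT were 21.5, 19.5 and 20.1, against 17.2, 13.5 and 16.4 at the region that covers Ckb. Within 1 kb of the starts of Ckb itself the mean was 1.63 kb in WT against 1.91 kb in DKO at day 0 and 0.38 and 0.896 kb at day 9. In between it was 0.201 and 0.63 kb at day 3. At day 6 it was 0.175 kb in WT, with covered bases in 2 libraries, and 0 kb in DKO.

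The downstream summit (chr12:111668600-111668899, read on the minus strand as the gene is, mm10) is printed since it held the highest folds of the gene. The capitals mark a pair of AGGTCA copies with 1 base between and at most 2 mismatches, an arrangement found around the summits of 4.87% of all merged regions.
Ckb downstream summit: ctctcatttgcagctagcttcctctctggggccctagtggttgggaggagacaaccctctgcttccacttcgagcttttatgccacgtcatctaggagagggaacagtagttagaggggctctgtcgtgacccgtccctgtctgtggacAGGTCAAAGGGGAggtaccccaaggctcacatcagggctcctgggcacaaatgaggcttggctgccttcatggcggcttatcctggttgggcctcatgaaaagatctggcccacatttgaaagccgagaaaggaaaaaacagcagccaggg

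Slc6a8 (chrX:73673150-73682502), the creatine transporter gene, was the one member below WT without overlap at day 9. Its region over the first exon was called in no DKO library of day 6. Within 1 kb of its transcript starts, all 3 of those libraries still had covered bases (mean 0.581 kb, against 2.17 kb in WT). Covered length was 2.89, 2.08 and 3.32 kb in WT replicates 1, 2 and 3 at day 6 and 0.767, 0.978 and 0.214 kb in DKO. The means were 2.76 kb ± 0.632 and 0.653 kb ± 0.395 (SD, n = 3 each; exact permutation p = 0.1, the smallest possible). At the other days the values lay closer: 2.02 to 2.59 kb in WT against 2.27 to 3.36 kb in DKO at day 0, 1.63 to 2.63 kb and 1.77 to 1.9 kb on day 3, and 2.52 to 2.69 kb and 1.95 to 2.5 kb at day 9. DKO thus stood far below WT at day 6 and just below it at day 9, when a scaling to total covered length kept the groups apart as well. Over the 4 days the difference was −0.618 kb (p = 0.0288, adjusted p = 0.425, exact permutation test). Without the wide and the shallow library together it was −0.776 kb with an adjusted p of 0.0341 (exact permutation test), and 5.25% of all genes were then called lower and 0.126% higher, while without 1 of them alone the adjusted p was 0.0977 or 0.296.

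The region over the first exon of Slc6a8, chrX:73672281-73673420, was called in 21 libraries, and the 3 without it were those of DKO day 6. Over all merged regions at day 6, 8.82% were called in all 3 WT but none of the 3 DKO libraries and 0.0756% the reverse. The folds of this region were 6.81, 6.49 and 6.5 in WT at day 6, and 9.92, 10 and 8.47 in DKO at day 9, above the WT values of 6.06, 7.07 and 7.79. The intron region at chrX:73673749-73676221 was called in all 24 libraries, with folds of 5.15, 5.89 and 5.07 in DKO at day 6 against 8.96, 5.95 and 9.26 in WT. The third, at chrX:73681424-73682774 near the gene end, was called in 17 libraries.

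Alpl (chr4:137741733-137796384, minus strand), which encodes the phosphatase TNAP, had only weak and scattered peaks. Its 14 regions included 6 called in a single library and none called in more than 14. No base of its RefSeq promoters was covered in any library. At day 3 covered length was 1.61, 1.04 and 0.609 kb in WT replicates 1, 2 and 3 and 0, 0.16 and 0.242 kb in DKO (1.09 kb ± 0.504 and 0.134 kb ± 0.123, SD, n = 3 each; exact permutation p = 0.1, the smallest possible). The values were 1.83, 0.835 and 1.94 kb in WT and 0.162, 1.01 and 0.243 kb in DKO at day 6, and 0.993, 0.982 and 0.646 kb and 1.28, 0.889 and 0.324 kb at day 9, with overlap at both days. At day 0 no library exceeded 0.484 kb. Over the 4 days the difference was −0.518 kb (p = 0.0125, adjusted p = 0.339, exact permutation test), the smallest unadjusted p of the 9 genes.

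The region at chr4:137769754-137770865, in an intron 26.2 kb into the gene and 0.319 kb from a later transcript start, was called in all 3 WT but none of the 3 DKO libraries at day 3. At that day 2.1% of all merged regions were split in this way and 0.228% in the opposite way. Its WT folds were 4.2, 4.34 and 4.57, from 12 to 16 reads at the summit, and at days 6 and 9 it was called in 2 of 3 libraries of either genotype. At day 0 no region of any member was split (1.09% of all merged regions were WT alone and 1.37% DKO alone).

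Gatm (chr2:122594467-122611303, minus strand) makes the creatine precursor guanidinoacetate. It had 1 region, at its start (chr2:122610811-122611709), in 3 libraries of day 0. Covered length was 0.16 kb in WT day 0 replicate 2 (fold 4.13), and 0.81 and 0.474 kb in DKO day 0 replicates 2 and 3 (highest folds 5.2 and 5.31). The 0.81 kb belong to the library with wide peaks. No library of days 3, 6 and 9 had a peak.

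Among the other creatine genes, Gamt, which methylates guanidinoacetate to creatine, and the mitochondrial creatine kinase gene Ckmt1 were tested, and the muscle creatine kinases Ckm and Ckmt2 had too few peaks. Both tested genes lay below WT at day 6 (62.6% of all genes) and above it at day 9 (30.7%) without overlap. Ckmt1 rose from 0.447 kb in WT against 0.68 kb in DKO at day 0 to 1.42 and 2.02 kb at day 9 (adjusted p = 0.0194, exact permutation test). Gamt had 6.26 and 7.84 kb at day 0, later 6.4 and 8.56 kb at day 9 (adjusted p = 0.842, exact permutation test).

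Atp2a2 (chr5:122453513-122502225, minus strand) was strongly marked at its start at every day. Regions at chr5:122499499-122501990 and chr5:122502419-122503342 flank the start and were called in all 24 libraries with median folds of 14.7 and 16.1, as was chr5:122510597-122512992, 9.8 kb upstream, with 10.4. The strongest peak ranked between 2.1% and 11.2% of the lists. Covered length over the whole window was 8.27, 6 and 7.47 kb in WT replicates 1, 2 and 3 at day 6 and 3.29, 4.52 and 2.19 kb in DKO, without overlap (7.24 kb ± 1.15 and 3.33 kb ± 1.16, SD, n = 3 each; exact permutation p = 0.1, the smallest possible). At day 9 it was 5.75, 8.02 and 6.68 kb in WT and 9.71, 7.79 and 9.41 kb in DKO, which overlapped. The values of day 0 were 5.73, 6.91 and 6.67 kb in WT and 3.52, 10.9 and 4.12 kb in DKO, the 10.9 kb in the library with wide peaks, and those of day 3 were 5.05, 5.19 and 3.46 kb and 2.83, 4.67 and 3.23 kb.

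The difference of day 6 lay mostly away from the start. Within 1 kb of the transcript starts the means at that day were 2.04 kb ± 0.00902 in WT and 1.79 kb ± 0.175 in DKO (SD, n = 3 each; exact permutation p = 0.1, the smallest possible). The upstream region had folds of 12.9, 11.1 and 15.9 in WT and 5.46, 6.01 and 7.96 in DKO at day 6, and at day 9 of 9.28, 13.5 and 10.4 in WT and 9.68, 8.2 and 6.32 in DKO. Its strongest summit (chr5:122511873-122512172, read on the minus strand, mm10) is printed because the genotypes differed there in fold at day 6 and not in whether a peak was called. The capitals mark a pair of AGGTCA copies with 1 base between and at most 2 mismatches.
Atp2a2 upstream summit: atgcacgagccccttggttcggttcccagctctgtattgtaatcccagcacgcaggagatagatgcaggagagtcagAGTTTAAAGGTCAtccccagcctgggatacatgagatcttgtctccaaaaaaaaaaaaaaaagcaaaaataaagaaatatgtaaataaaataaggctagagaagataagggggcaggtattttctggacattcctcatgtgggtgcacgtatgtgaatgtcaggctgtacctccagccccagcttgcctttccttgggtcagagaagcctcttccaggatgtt

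Of the other calcium cycling genes, Sln, which encodes the SERCA regulator sarcolipin, and the ryanodine receptor gene Ryr3 had no peak in any library, and 6 of 10 genes were tested. None was called between the genotypes over the 4 days (exact permutation test), 4 lay below WT at day 6 (62.6% of all genes) and 3 above at day 9 (30.7%) without overlap, and 3 were called lower at day 9 than at day 0 (15.7%) and none higher (17%). The SERCA1 gene Atp2a1 had 1.27 kb in WT against 2.07 kb in DKO at day 9. The SERCA3 gene Atp2a3 fell from 0.841 and 1.44 kb at day 0 to 0 kb in both genotypes at day 9 (adjusted p = 0.0194, exact permutation test).

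**Figure D5:**
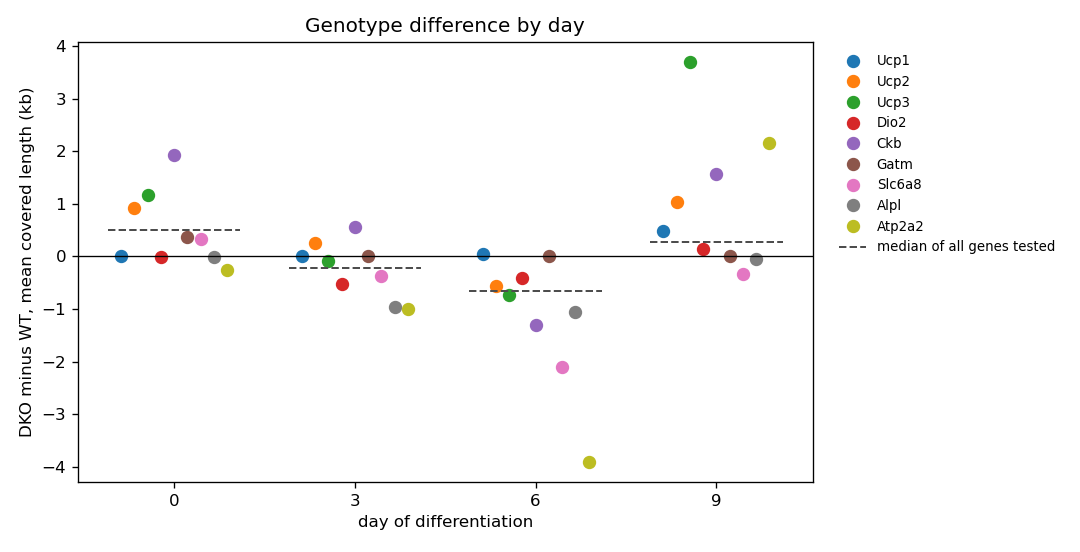
Difference in mean covered length between DKO and WT (kb, y axis, 3 libraries per genotype) at each day (x axis) for the 9 genes (coloured points), with the median over the 15933 genes tested as a dashed line. At day 6, 7 of the 9 points lie below 0, where the median of all genes is −0.648 kb, and at day 9 Ucp3 (3.69 kb) lies furthest above the median of 0.269 kb.

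The genotype difference of the 9 genes followed that of all genes in sign at days 0, 3, 6 and 9. Its median over the 9 was 0.34, −0.0773, −0.734 and 0.482 kb, beside 0.509, −0.22, −0.648 and 0.269 kb over all genes tested.

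The lists of related paths gave the surroundings of the 9 genes. None of their tested members was called between the genotypes over the 4 days (exact permutation test). The counts of all these lists are in kb and are not given per covered Mb. On that scale 15% of all genes lay below WT at day 6 and 37.7% above. At day 9, 13.8% lay below and 14% above. How far the longer DKO lists of day 9 enter into the counts was not tested. Of 15 genes of the thermogenic programme, 11 were called higher at day 9 than at day 0 (17% of all genes) and none lower (15.7%). At day 3, 4 of the 15 lay below WT without overlap (10.5% of all genes) and none above (0.69%). At day 6, 6 lay below (62.6%), and at day 9, 11 lay above (30.7%). Among those 11 were the coactivator gene Ppargc1b (9.28 kb in WT against 17 kb in DKO) and the brown fat regulator gene Prdm16 (1.73 and 3.31 kb). Ppargc1a, the related coactivator gene, had 1.89 kb in WT against 2.3 kb in DKO at day 9, with overlap, and rose from 0.669 and 1.03 kb at day 0 (adjusted p = 0.0194, exact permutation test). All 8 genes of the glycerolipid cycle, in which fatty acids are released and esterified again, lay above WT at day 9 without overlap (30.7% of all genes), and 7 were called higher than at day 0 (17%). The lipase genes Pnpla2, Lipe and Mgll had 12.1, 13.3 and 21.1 kb in WT and 14.5, 15.4 and 30.3 kb in DKO at day 9.

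The thyroid hormone genes were counted beside Dio2, which lay below WT at day 3 and overlapped it at day 6. Of 6 tested, 1 lay below WT at day 3 without overlap (10.5% of all genes) and none above (0.69%). At day 6, 5 lay below (62.6%), and at day 9, 4 lay above (30.7%). From day 0 to day 9, 1 was called higher (17%). That was Thrb, the receptor gene, with 2.56 kb in WT against 4.28 kb in DKO at day 0 and 7.47 and 13.2 kb at day 9 (adjusted p = 0.0194, exact permutation test). Thra had 17 and 18.7 kb at day 9, and Dio1, the other activating deiodinase gene, 1.24 and 1.35 kb. Of the 5 mitochondrial carrier genes tested, none was called with time, 4 lay below WT at day 6 (62.6% of all genes) and 1 above at day 9 (30.7%). The latter was Slc25a4, with 3.45 kb in WT against 4.09 kb in DKO. Slc25a4 and Slc25a5 encode ADP/ATP carriers, and Slc25a5 had 1.64 and 2.07 kb, with overlap.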

How the data were processed

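H3K27ac was measured by ChIP-seq in 24 libraries, 3 for each of 8 groups taken from the labels, and the 16 input libraries were not analysed here. Per the labels, reads were handled with bcl2fastq 2.17, cutadapt 1.18 and BWA 07.17 on mm10, and the authors called narrow peaks with MACS2 2.1.1.20160309 in each library on its own. The control library of each list is not given in the sources used here. The deposited peak lists give the fold of each summit over its local background, a linear ratio, and −log10 of a q-value as the caller wrote them. The deposited −log10 p was used with the fold to recover whole reads at the summits (tolerance 0.05), which came out for 100% of peaks in 23 lists and for 98.8% in WT day 3 replicate 3. Numbers of mapped reads are not in the lists.

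Covered length, highest fold and q rank were computed from 15 kb upstream to the gene end (GENCODE M21) with Python 3.11.15, numpy 2.4.6, pandas 2.3.3, scipy 1.17.1 and pysam 0.24.0, with figures from matplotlib 3.10.9. Protein-coding genes with a peak in at least 3 of 24 libraries were tested with two-sided exact permutation tests, genotype permuted within days (smallest p 1.25e-05) or day within genotype (smallest p 0.005), adjusted by Benjamini-Hochberg over 15933 genes at 0.05. The scripts were tested on simulated data. Peaks overlapping by at least 1 bp were merged into regions. All 9 genes are named, with up to 3 regions each by number of libraries and fold and every region split between genotypes, the 5 genes most like the member with the largest rise, and the first genes of each list. The members and lists were chosen with earlier results of these data known. Promoters came from RefSeq (GRCm38.p6, 250 bases before the start), other sequence from the same assembly, and motifs were searched on both strands. Sequences in annotated exons are not printed.

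The settings varied were a −log10 q floor of 5, the 20000 strongest peaks, 250 bp either side of summits, scaling to covered Mb, 5 kb upstream, 1 kb around transcript starts, leaving out libraries and a replicate block. Same-numbered WT and DKO libraries of a day deviated together in some cases and apart in others (correlations from −0.823 to 0.89), so the numbers were not taken as pairs.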

Additional observations from a re-analysis of the deposited data

Results flagged for a closer look

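For 3 genes the genotype difference in covered length had a range over the 4 days with a p under 0.05. The range is that of the DKO minus WT difference, with genotype permuted within days. The p-values are not adjusted for the 9 genes tested. A difference at any single day also widens the range, so that a change over the days and a difference at 1 day cannot be told apart by it. Ucp3 had a range of 4.42 kb (exact permutation p = 0.0388), from −0.734 kb at day 6 to 3.69 kb at day 9. Slc6a8 had a range of 2.45 kb (exact permutation p = 0.044), from −2.11 kb at day 6 to 0.34 kb at day 0. The range of Atp2a2 was 6.07 kb (exact permutation p = 0.0285), from −3.91 kb at day 6 to 2.16 kb at day 9. Each lowest difference fell on day 6, when DKO lists covered 20.7 to 36.3 Mb and WT lists 55.5 to 60.4 Mb, and the part of that gap in these values was not tested. For the other 6 genes the exact permutation p lay between 0.0537 (Dio2) and 0.4 (Gatm) in the same tests.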

How the results depend on the processing

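Over the 4 days 0 of the 9 genes were called in covered length, and 1 when scaled per covered Mb (Ucp3) or without both doubted libraries (Slc6a8), the latter chosen after seeing the data. The mean difference turned for Ucp2 with summit windows (−0.281 kb), for Ckb with a replicate left out (−0.00925 to 1.05 kb) and for Slc6a8 with the 20000 strongest peaks (0.159 kb), and the log2 fold difference of Ckb with 5 kb upstream (−0.0406). From day 0 to day 9, 5 genes were called, against 2 with the strongest peaks (Ucp3 lost), 1 with summit windows and 3 around transcript starts. No replicate could be left out with a call possible (0 called, smallest p 0.0556). The replicate block gave 0 members over the 4 days and 0 for day 9 against day 0, where its smallest p is 0.0312, which says nothing on stability. The difference between these days turned for Ucp2 with summit windows (0.044 kb) and for Slc6a8, not called, with −log10 q of at least 5 (0.00683 kb), summit windows (0.561 kb), a replicate left out (−0.256 to 0.213 kb) and without DKO day 0 replicate 2, alone or with the shallow library (0.0907 kb). At single days it turned for Ucp2 at day 0 with summit windows (−0.662 kb) and per covered Mb (−0.00128), and for Slc6a8 at day 9 with summit windows (0.0843 kb). Genes below WT without overlap, summed over days, were 5, against 3 with the strongest peaks, 8 without both doubted libraries and 6 to 12 with a replicate left out, and those above were 7, against 2 with the strongest peaks, 3 with summit windows and 7 to 9. Regions in WT alone were 2, against 0 with the strongest peaks, 4 without either doubted library, 6 without both and 4 to 17 with a replicate left out, and those in DKO alone were 1, against 2 without DKO day 0 replicate 2 or both, and 2 to 9. Leaving out a replicate eases these counts by construction. The other causes were not tested. Over all genes, the count called lower between genotypes ranged from 0 to 1014 and higher from 0 to 1705, from 0 to 3718 and 0 to 5086 for day 9 against day 0, and from 0 to 804 and 0 to 32 in fold. Peaks at Ucp1 and Alpl rest on 8 to 25 reads a summit, which limits what could be called there at this depth.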
